A study of Homo sapiens with 6 samples.

Results

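IL1A, IL1B, IL6, CXCL8, CXCL1, CXCL2, CXCL3, CCL20, LIF and CSF2 are 10 inflammatory cytokine and chemokine genes, and their expression was described here in 8505C, a human anaplastic thyroid carcinoma (ATC) cell line. They were taken by gene name from a table of 32985 genes, and all 10 had a row. The set was put together because IL1B and CXCL8 differed between NUF2 knockdown and control cells, so the differences of those 2 genes are given as descriptions without a p-value. The study asked which genes change when NUF2, a subunit of the kinetochore, is knocked down in ATC cells. RNA was sequenced from cells transfected with control siRNA (siCtrl) or with NUF2 siRNA (siNUF2), with 3 libraries in each group, numbered 1 to 3. The labels give 24 h for all libraries and do not say from which step it is counted. All 6 libraries came from the same cell line with no further agent, so they hold no immune or stromal cells by design, and the methods give a single NUF2 siRNA sequence.

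Cytokine genes of this kind are silent or low in most resting cells and are switched on through NF-kB and AP-1 when a cell senses IL-1, TNF or microbial products. IL-1 alpha and IL-1 beta bind the same receptor and induce IL6, CXCL8 and the CXCL1, CXCL2 and CXCL3 chemokines in the cells they reach, often including further IL-1. Their mRNAs carry AU-rich elements in the 3′ untranslated region (UTR) that shorten their lives, and many carcinoma cells make part of this programme without any immune cell nearby.

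The libraries held 61257859 to 69755291 counts, and mitochondrial genes took 5.46% to 7.06% of them. NUF2 itself had 14.8, 14.5 and 12.2 FPKM (fragments corrected for library size and for the length of the transcript) in siCtrl 1, 2 and 3, and 1.53, 2.05 and 1.56 FPKM in siNUF2 1, 2 and 3. All 3 knockdown libraries thus lay below all control libraries. Of the thyroid and epithelial markers, KRT7 (354 to 512 FPKM) and NKX2-1 (14.6 to 21.5 FPKM) were present, while EPCAM, CDH1, PAX8, FOXE1 and TG had mean levels under 1 FPKM. Library siCtrl 1 stood apart in leukocyte markers: 8 of the 11 measured were highest there, among them LYZ, which had 7.47 FPKM in siCtrl 1, 0.434 FPKM in siNUF2 1 and 0 in the other 4 libraries. PTPRC, the pan-leukocyte marker, had 0.518 FPKM in siCtrl 1, 0.147 in siNUF2 1 and at most 0.0178 elsewhere. CD14, CD68 and NKG7 were not highest in siCtrl 1. CD14 had 2.10, 2.23 and 1.99 FPKM in siCtrl 1, 2 and 3, and CD68 had 6.77, 3.48 and 6.82 FPKM. NKG7 was highest in siNUF2 1. The summed level of the 11 markers was 18.0 FPKM in siCtrl 1 and 5.86 to 8.94 FPKM in the other libraries, where CD68 and CD14 made up most of it. The fold changes of IL1B, CXCL8 and LIF are therefore given with and without siCtrl 1. Of the endothelial markers, CDH5 had 1.87 FPKM in siCtrl 2, 2.72 in siNUF2 2 and 0.496 to 0.762 elsewhere. It differed by replicate number (edgeR adjusted p = 0.0109), while PECAM1 and VWF had means under 1 FPKM.

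The sequences before the start sites of the chemokine genes are shown first because CXCL1, CXCL2 and CXCL3 are close copies of each other that varied together. The 150 bases upstream of each start site in RefSeq (build GRCh38.p14) are written 5′ to 3′ on the gene's strand. Capitals mark the 9 letters GGNNTTTCC, a form of the site bound by NF-kB, and the 7 letters TGANTCA, the site bound by AP-1, both searched on either strand. The 2 motifs did not overlap in any of these stretches.
CXCL1, chr4:73869243-73869392, plus strand: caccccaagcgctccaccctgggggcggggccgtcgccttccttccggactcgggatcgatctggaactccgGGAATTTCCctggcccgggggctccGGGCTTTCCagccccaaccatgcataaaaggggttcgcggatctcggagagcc
CXCL2, chr4:74099196-74099345, minus strand: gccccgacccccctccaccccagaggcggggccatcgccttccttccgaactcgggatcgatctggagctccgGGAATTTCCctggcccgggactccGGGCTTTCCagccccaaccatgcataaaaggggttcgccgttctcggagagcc
CXCL3, chr4:74038690-74038839, minus strand: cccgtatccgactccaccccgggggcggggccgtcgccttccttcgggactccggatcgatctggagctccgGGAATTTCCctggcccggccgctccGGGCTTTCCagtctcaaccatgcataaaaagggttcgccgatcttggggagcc
CXCL8, chr4:73740419-73740568, plus strand: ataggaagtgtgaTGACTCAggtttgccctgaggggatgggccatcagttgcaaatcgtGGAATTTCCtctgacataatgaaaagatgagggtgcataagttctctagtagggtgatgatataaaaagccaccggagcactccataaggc
IL6, chr7:22727050-22727199, plus strand: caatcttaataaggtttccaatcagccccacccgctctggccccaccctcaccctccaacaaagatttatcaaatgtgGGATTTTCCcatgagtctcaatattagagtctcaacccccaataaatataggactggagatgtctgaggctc

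In these promoters the NF-kB letters stood at the same distance from the start in the 3 CXC paralogues, from 53 to 45 bases upstream, with a further match 69 to 78 bases upstream. CXCL8 had its match 83 to 91 bases upstream and IL6 64 to 72 bases upstream. Searching the full 250 bases upstream, the NF-kB letters were found in 6 of the 9 members that had a promoter in the RefSeq table (CCL20, CXCL1, CXCL2, CXCL3, CXCL8 and IL6) and in 5.48% of all 35116 promoters. The AP-1 letters were found in CXCL8 and IL1A and in 6.57% of all promoters. IL1B had no match to either motif in this window, which says only that these letters are not in it. LIF was not in the table.

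At the other end of the mRNAs, each of the 10 members held the AU-rich word TATTTAT in the 3′ UTR of its canonical GENCODE transcript, against 32.3% of 18876 3′ UTRs. The pentamer ATTTA occurred from 3 times (CCL20) to 10 times (CXCL2), with a median of 8.80 per kb in the members and 1.58 per kb over all 3′ UTRs. A second word was searched because the methods give a single NUF2 siRNA sequence. The labels do not say which siRNA the sequenced cells received. TATGGAA pairs with bases 2 to 8, the seed, of the antisense strand that the methods give for this siRNA. Among the members it was present in IL1B and CXCL8, once each, and in none of the other 8. Over all 3′ UTRs, 13.8% held it. The 30 bases around each match (GRCh38) read as follows, with the 7 letters in capitals.
IL1B, chr2:112829897-112829926, minus strand: gtttttaatagcTATGGAAtcaattcaatt
CXCL8, chr4:73743648-73743677, plus strand: tgtttctgattgTATGGAAatataaaagta

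In control cells the members covered a wide range of levels on the FPKM scale, which is corrected for transcript length. CXCL1, a ligand of the neutrophil receptor CXCR2, was highest, with 45.0, 24.6 and 48.3 FPKM in siCtrl 1, 2 and 3 (39.3 ± 12.8, SD, n = 3). CXCL8 (interleukin 8), the main neutrophil attractant of human cells, followed with 15.7, 12.8 and 16.3 FPKM (14.96 ± 1.87). IL6, the cytokine that signals through gp130, had 8.004, 5.80 and 27.2 FPKM (13.7 ± 11.8). The CXCL8 libraries lay close together, whereas the IL6 mean was carried by siCtrl 3.

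CXCL2 had 9.51, 5.36 and 18.9 FPKM in siCtrl 1, 2 and 3 (11.3 ± 6.95). The 2 interleukin 1 genes were nearly level with each other. IL1A, whose product is active as a precursor and partly stays in the cell, had 5.56, 6.66 and 10.5 FPKM (7.57 ± 2.59), and IL1B, whose product is cut to its active form by caspase 1, had 11.0, 4.37 and 6.30 FPKM (7.21 ± 3.40). These libraries differed in which gene was higher: IL1B in siCtrl 1 and IL1A in siCtrl 2 and 3. LIF, a cytokine of the IL-6 family, had 3.77, 1.69 and 2.20 FPKM (2.55 ± 1.08).

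The last 3 members were near the limit of what was read. CXCL3 had 1.27, 0.298 and 1.27 FPKM in siCtrl 1, 2 and 3. CCL20, the ligand of CCR6, had 0.223, 0.0932 and 0.783 FPKM. CSF2, which encodes the growth factor GM-CSF, had 0.104, 0 and 0.362 FPKM from 7, 0 and 22 counts, where a count of 0 allows up to 3 counts. Along the order of the means, neighbours had libraries that did not overlap at 3 steps only: CXCL1 above CXCL8, IL1B above LIF, and LIF above CXCL3. The genes from CXCL8 to IL1B overlapped at each step with the next, so their order is not settled by 3 libraries. CXCL1 was at the 97.1st percentile of all genes in the table, CXCL8 at the 91.8th, IL1B at the 84.3rd and CSF2 at the 47.3rd.

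**Figure D1:**
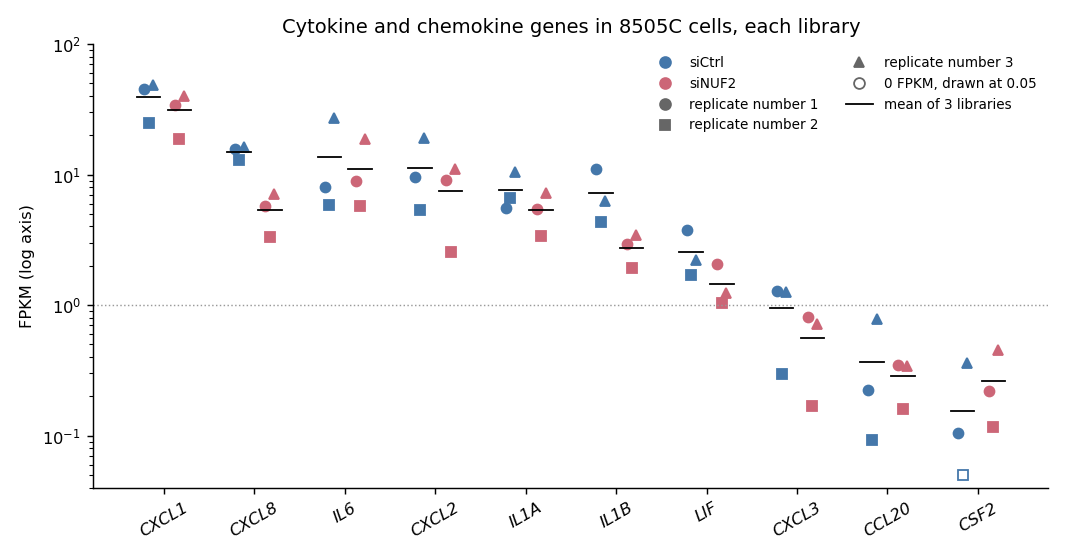
FPKM of the 10 genes in each of the 6 libraries on a log axis, ordered by the siCtrl mean; symbols give the replicate number, black lines the group means and the dotted line 1 FPKM. The siNUF2 libraries of CXCL8 and IL1B lie wholly below the siCtrl libraries, while the groups of the other 8 genes overlap, and number 2 (squares) is the lowest siNUF2 library of each gene.

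IL1B and CXCL8 were lower after NUF2 knockdown in every library, which is what chose them. IL1B had 2.92, 1.94 and 3.42 FPKM in siNUF2 1, 2 and 3 (2.76 ± 0.755), or 38.3% of the control mean. CXCL8 had 5.72, 3.34 and 7.12 FPKM (5.39 ± 1.91), or 36.1% of the control mean. The highest siNUF2 library lay below the lowest siCtrl library for both genes and for no other member, and 13.4% of all genes tested were lower in siNUF2 without overlap of the groups (23.9% in either direction). Fewer cells making an mRNA and less of it per cell cannot be told apart in these bulk libraries.

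On the counts, edgeR gave a log2 fold change of -1.45 ± 0.26 (SE) for CXCL8 and -1.36 ± 0.35 for IL1B. Since this contrast chose the 2 genes, the threshold (adjusted p under 0.05 over 11725 genes tested) is no test of them, and it is given only because they enter the counts of calls: CXCL8 was past it in this fit, and IL1B was not. With the replicate number as a block, which compares siNUF2 with siCtrl within each number, both were past it, at -1.51 ± 0.15 and -1.29 ± 0.21. Within numbers 1, 2 and 3, the ratio of siNUF2 to siCtrl was 0.268, 0.457 and 0.552 for IL1B, and 0.365, 0.268 and 0.442 for CXCL8.

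The IL1B difference was largest in number 1, where siCtrl 1 had 2665 IL1B counts and the other control libraries 1066 and 1411. This is the library in which 8 of the 11 leukocyte markers were highest, though not CD14 or CD68. Leukocytes are a strong source of IL1B, and the part of these markers in the siCtrl 1 value was not tested. Without siCtrl 1 the log2 fold change of IL1B was -0.93, against -1.36 with it. CXCL8 was not raised in siCtrl 1 relative to siCtrl 3, and without siCtrl 1 its log2 fold change was -1.42, with the call lost. Its call was also lost without siCtrl 2, siCtrl 3 or siNUF2 1, at log2 fold changes from -1.55 to -1.38.

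**Figure D2:**
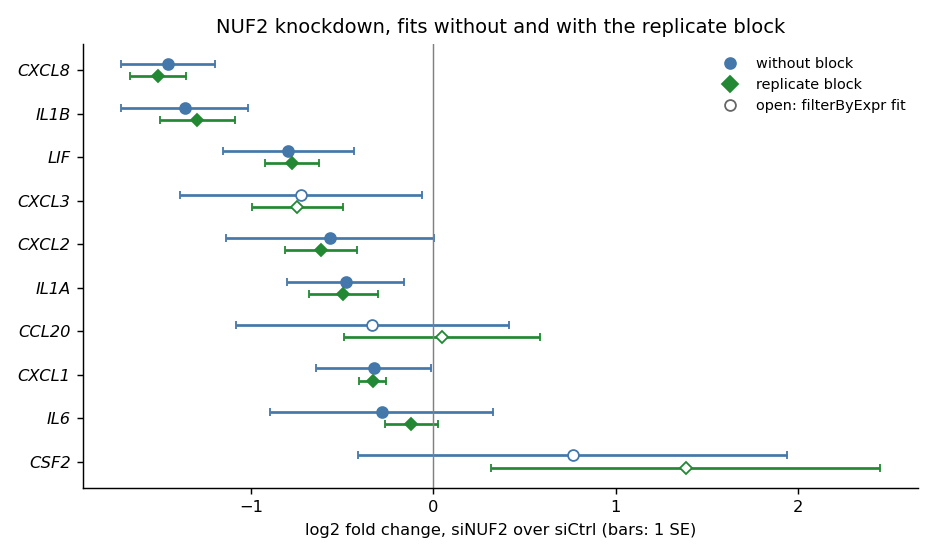
Log2 fold change of siNUF2 over siCtrl for each member, with 1 SE, in the edgeR fit without the replicate block (circles) and with it (diamonds); open symbols are genes under 1 FPKM, from the fit with the filterByExpr filter. CXCL8 and IL1B are lowest near -1.4, the errors of most members shrink with the block, and CSF2 is the member above 0 in both fits.

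Of the 7 members that passed the filter of a mean of 1 FPKM, 1 (CXCL8) was called in the fit without the block, where 3.99% of the genes tested were called and 2.46% were called lower. With the block, 4 were called, all lower (IL1B, CXCL8, CXCL1 and LIF), where 14.5% of the genes tested were called, 7.91% lower and 6.64% higher. Since IL1B and CXCL8 were chosen on this contrast, only LIF and CXCL1 add to these counts. The median log2 fold change of the 7 was -0.57, beside 0.01 over all genes tested, and a set chosen around 2 lower genes had to lie below 0 in part.

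LIF fell in the fit with the block. It had 2.08, 1.04 and 1.24 FPKM in siNUF2 1, 2 and 3, against 3.77, 1.69 and 2.20 FPKM in siCtrl. The groups overlapped, since siNUF2 1 lay above siCtrl 2, but within each number the knockdown library was the lower, at ratios of 0.555, 0.631 and 0.572. The log2 fold change was -0.77 ± 0.15 with the block (edgeR adjusted p = 0.0154) and -0.79 ± 0.36 without it (adjusted p = 0.297). LIF, like IL1B, was highest in siCtrl 1, where most of the leukocyte markers were highest, though not CD14 or CD68. The part of these markers in the LIF value was not tested. Without siCtrl 1 its log2 fold change in the fit without the block was -0.40 (edgeR adjusted p = 0.638).

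CXCL1 also fell in the fit with the block, by less. Its siNUF2 libraries had 34.2, 18.8 and 39.9 FPKM, or 78.8% of the control mean. The groups overlapped widely, with siCtrl 2 below siNUF2 1 and siNUF2 3. The ratios within numbers were 0.763, 0.785 and 0.835, a narrow range, and the log2 fold change was -0.33 ± 0.07 with the block (edgeR adjusted p = 0.0266) and -0.33 ± 0.31 without it (adjusted p = 0.662). With the filterByExpr filter and the block, which tested 19276 genes, the adjusted p of edgeR was 0.0517. In the fit without the block, its log2 fold change ran from -0.57 without siCtrl 2 to -0.07 without siNUF2 2.

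The other 3 genes above the filter did not pass in either fit. CXCL2 had 9.08, 2.57 and 11.0 FPKM in siNUF2 1, 2 and 3, and a log2 fold change of -0.57 ± 0.57 (edgeR adjusted p = 0.681, or 0.0805 with the block). Without siCtrl 3 its log2 fold change was 0.04. IL1A had 5.43, 3.39 and 7.25 FPKM, and a log2 fold change of -0.48 ± 0.32 (edgeR adjusted p = 0.502, or 0.127 with the block). IL6 had 8.91, 5.72 and 18.7 FPKM, and a log2 fold change of -0.28 ± 0.61 (edgeR adjusted p = 0.864, or 0.626 with the block). The sign for IL6 rested on number 3, where the ratio was 0.695, while it was 1.12 and 1.01 in numbers 1 and 2, and without siCtrl 3 the log2 fold change was 0.70.

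The 3 members under the filter took their values from the fit with edgeR's filterByExpr filter, which tested all 10. In that fit 1 member (CXCL8) was called where 1.60% of the genes were, and with the block 3 (CXCL8, IL1B and LIF) where 6.80% were. CXCL3, with 31 to 230 counts per library, had 0.806, 0.167 and 0.713 FPKM in siNUF2 1, 2 and 3 and a log2 fold change of -0.73 ± 0.66 (edgeR adjusted p = 0.740, or 0.133 with the block), at ratios of 0.636, 0.572 and 0.573 within numbers. CCL20, with 13 to 95 counts, had 0.349, 0.161 and 0.342 FPKM and -0.33 ± 0.75 (edgeR adjusted p = 0.907). Its sign turned with the block, to 0.05, and without siCtrl 3, to 0.84. CSF2 had 0.218, 0.117 and 0.456 FPKM from 8 to 26 counts and 0.77 ± 1.18 (edgeR adjusted p = 0.856).

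Within the numbers, 7 members were lower in siNUF2 within all 3 numbers (IL1A, IL1B, CXCL8, CXCL1, CXCL2, CXCL3 and LIF), 6 of them among the 7 genes above the filter, where 25.3% of all genes tested were lower within all 3 numbers. IL6, CCL20 and CSF2 were not. Since IL1B and CXCL8 were chosen on this contrast, only IL1A, CXCL1, CXCL2, CXCL3 and LIF add to the count of 7. CXCL1, CXCL2 and CXCL3 share sequence, so how the counting split their reads bears on each of them. Their coding sequences were 90.8% to 94.4% identical, and the longest exact stretch shared by a pair of their canonical transcripts was 97 bases, between CXCL2 and CXCL3. CXCL1 and CXCL8 shared 53.7% of coding bases and no stretch over 10 bases. IL6 and LIF overlap antisense genes, which had 189 counts beside 11669 for IL6, and 4 and 39 counts beside 3633 for LIF.

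The seed word in the 3′ UTRs of IL1B and CXCL8 was set beside the knockdown contrast over all genes tested that have a canonical 3′ UTR. Of the 1531 genes with the word, 163 (10.6%) were called lower without the block and 16 (1.05%) higher. Of the 8590 genes without it, 121 (1.41%) were called lower and 158 (1.84%) higher. Genes with the word made up most of the genes called lower here. The median log2 fold change was -0.11 with the word and 0.02 without it. With the block, 21.6% of the genes with the word and 6.58% of those without it were called lower.

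Long 3′ UTRs hold more words of any kind, with a median of 3133 bases for genes with the seed word and 1105 bases for genes without, so the shares were also taken within bands of length. Among 3′ UTRs of at least 50 and under 1000 bases, the band of IL1B (610 bases), 9.82% of 163 genes with the word and 0.892% of 4035 without it were called lower. Among those of at least 1000 and under 2000 bases, the band of CXCL8 (1252 bases), the shares were 9.54% of 262 and 1.72% of 2033. CXCL8 is itself counted among the genes with the word called lower, and IL1B among those tested and not called. In the shares with the block both are counted as called lower. The IL1B word is followed by T and the CXCL8 word by A, and the part of that base was not tested. As all 3 knockdown libraries carry the siRNA and the loss of NUF2 together, the 2 cannot be told apart for IL1B or CXCL8 in this design. The other members that were called lower with the block, CXCL1 and LIF, lack the word.

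**Figure D3:**
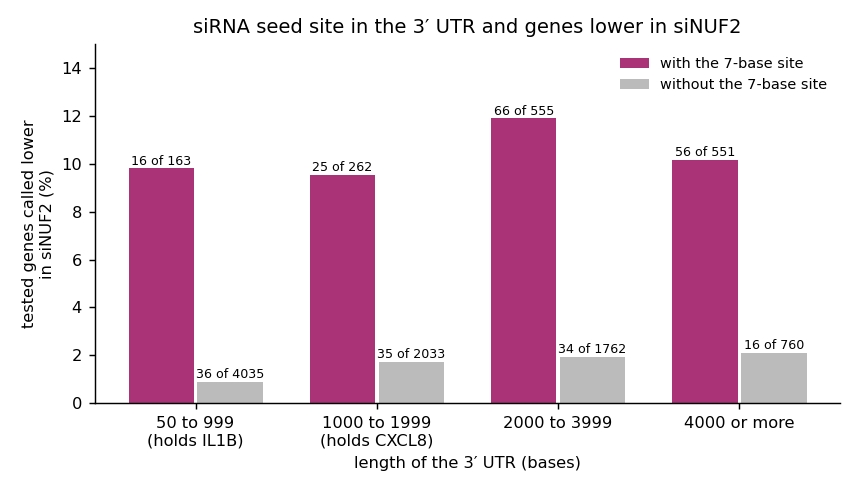
Share of tested genes called lower in siNUF2 (edgeR without the block, in percent) among genes with and without the 7-base seed word in the 3′ UTR, in 4 bands of 3′ UTR length in bases; numbers over the bars are genes called lower of genes tested. In each band the share is higher with the word, from 9.54% to 11.9%, than without it, from 0.892% to 2.11%.

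The members also differed by replicate number. This contrast is balanced between siCtrl and siNUF2 and did not choose the genes. In an edgeR test of the 3 numbers with the group in the model, 4 of the 7 members were called (IL6, CXCL1, CXCL2 and LIF), where 7.60% of all genes tested were called. With the filterByExpr filter, 5 of 10 were called, the same 4 and CXCL3, where 4.29% of the genes were called. Number 2 was the lowest in siNUF2 for all 10 members and in siCtrl for 9, with IL1A the exception. Number 3 was the highest for 7 members in each group. The labels do not say what the libraries of a number share.

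IL6 had the widest span among the genes above the filter. In CPM (counts scaled by library size with TMM) it was 19.4, 14.1 and 66.1 in siCtrl 1, 2 and 3 and 21.7, 14.2 and 45.95 in siNUF2 1, 2 and 3, so that number 3 stood above the others in both groups. Number 3 was higher than number 2 by 1.97 on the log2 scale (edgeR adjusted p over the numbers = 0.00312). CXCL2 differed by 1.93 between the same numbers (adjusted p = 0.0124) and CXCL1 by 1.02 (adjusted p = 0.00320).

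CXCL1 was low in number 2 only, at 39.2 and 30.8 CPM against 54.7 to 77.3 CPM elsewhere. LIF followed another order, with number 1 the highest in both groups and number 2 lower than number 1 by a log2 difference of -1.06 (edgeR adjusted p = 0.0280). CXCL3 had 3.34, 0.808 and 3.32 CPM in siCtrl 1, 2 and 3 and 2.12, 0.462 and 1.90 CPM in siNUF2, with number 2 again far below the others (adjusted p = 0.0242 with the filterByExpr filter). IL1A, IL1B and CXCL8 did not pass this test, with edgeR adjusted p from 0.0957 to 0.104, and neither did CCL20 (0.221) and CSF2 (0.359) in the filterByExpr fit.

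**Figure D4:**
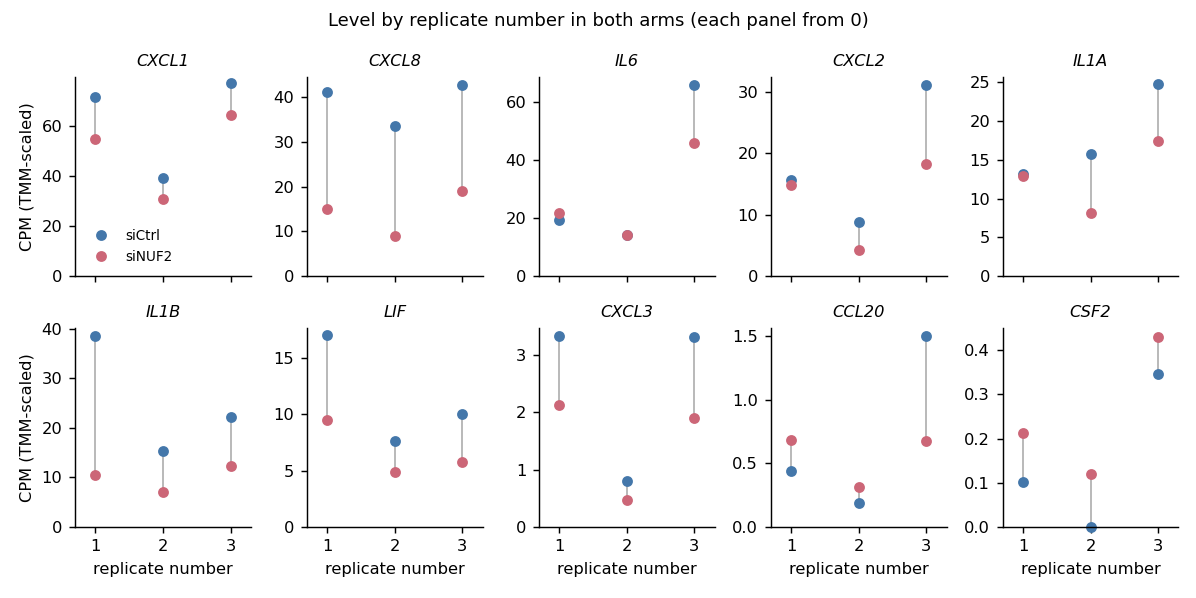
CPM of each member by replicate number, with the siCtrl and siNUF2 libraries of a number joined by a grey line and each panel drawn from 0. Number 2 is low in both groups for CXCL1, CXCL2 and CXCL3, number 3 is high in both for IL6, and the siNUF2 library of CXCL8 lies far below its siCtrl library at each number.

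Over the 6 libraries the members thus followed each other to unequal degrees, given here as Pearson's r of log2 CPM without a test, since the libraries share group and number. CXCL1 and CXCL2 were the closest pair (r = 0.952), followed by IL1B and CXCL8 (0.907) and IL1B and LIF (0.883). Both IL1B and CXCL8 were chosen for being lower in siNUF2, and that choice by itself favours a high r between them. IL1A was closest to CXCL2 (0.876), and IL6 and LIF were nearly unrelated (0.0676). Outside the set, the genes most like IL1B were CEP19 (0.998), SH2B3 (0.994) and XPOT (0.994), and those most like CXCL8 were RAB6A (0.997), PDE12 (0.995) and GALNT6 (0.994). A search over all genes tested with only 6 libraries favours a high r by itself. CEP19, for example, had a log2 fold change of -0.35 ± 0.23 (edgeR adjusted p = 0.497). The seed word was present in the 3′ UTR of SH2B3 and XPOT and absent from the other 4, where 13.8% of all 3′ UTRs held it.

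The rest of the pathway was read from lists of genes. Over all genes tested, 3.99% were called without the block, 14.5% with it and 7.60% by replicate number. These shares stand beside the counts of every list below. The lists are short, so their counts are no test of a list. Of 13 tested genes of IL-1 receptor signalling, 1 fell and 0 rose. The gene that fell was MAP3K7 (TAK1), the kinase that links the receptor complex to IKK, with 9.57, 9.96 and 9.13 FPKM in siCtrl 1, 2 and 3 and 6.87, 7.002 and 7.10 FPKM in siNUF2 (log2 fold change -0.43 ± 0.09, edgeR adjusted p = 0.0370). The call was lost with the filterByExpr filter (adjusted p = 0.0623 in edgeR), with no filter (0.112) and without any 1 of the 6 libraries (0.0841 to 0.143). With the block 4 fell: MAP3K7, the adaptor MYD88 (-0.41 ± 0.09), the inhibitor TOLLIP (-0.43 ± 0.08) and the IL-33 receptor IL1RL1 (-0.75 ± 0.10). The IL-1 receptor IL1R1, the decoy receptor IL1R2 and the antagonist IL1RN were all under 1 FPKM. The most abundant gene of the list was the kinase IRAK1, with a log2 fold change of 0.15 ± 0.12.

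Of 5 tested genes of IL-1 processing, CAPN2, a calpain of the protease family that cuts the IL-1 alpha precursor, fell (log2 fold change -0.43 ± 0.09, edgeR adjusted p = 0.0366), from 38.3 to 42.5 FPKM in siCtrl to 28.7 to 31.1 FPKM in siNUF2. The call was lost with the filterByExpr filter (adjusted p = 0.0631 in edgeR), with no filter (0.115), with the F-test (0.0770) and without any 1 of the 6 libraries (0.0856 to 0.117). CASP4 rose with the block (0.35 ± 0.08). The inflammasome genes NLRP3, NLRC4 and AIM2 were under 1 FPKM in each library. PYCARD, their adaptor, had 0.996, 1.06 and 1.35 FPKM in siCtrl 1, 2 and 3 and 0.574, 1.29 and 0.721 FPKM in siNUF2, a mean just under the filter.

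None of the 7 tested NF-kB and IKK subunits was called in either fit. RELA, the most abundant, had a log2 fold change of -0.06 ± 0.09 and RELB -0.52 ± 0.32. Of the 9 genes of the IkB family and NF-kB feedback 0 were called without the block. With it 2 fell, NFKBIE (-0.60 ± 0.13) and the deubiquitinase CYLD (-0.78 ± 0.13). The 3′ UTR of CYLD holds the seed word at 2 places, and that of NFKBIE lacks it. TNIP2 of this list also holds it at 2 places and was not called (log2 fold change -0.18, edgeR adjusted p = 0.542, or 0.236 with the block). The genes NFKBIA, TNFAIP3 and NFKBIZ of this list differed by replicate number, each higher in number 3 than in number 2 (log2 differences 0.90, 1.63 and 0.90). NF-kB induces these genes, but its part in their order over the numbers was not tested.

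Of 8 tested NF-kB responsive genes 0 were called without the block. With it PTGS2 (cyclooxygenase 2) rose, from 2.91, 4.79 and 4.61 FPKM in siCtrl 1, 2 and 3 to 5.36, 10.4 and 7.79 FPKM in siNUF2 (log2 fold change 0.94 ± 0.11, edgeR adjusted p = 0.00256, against 0.112 without the block). Its direction was thus opposite to that of IL1B and CXCL8. By number, 4 of the list (ICAM1, PTGS2, SOD2 and PLAUR) differed. PTGS2 was lowest in number 1, with log2 differences from it of 0.85 in number 2 and 0.61 in number 3. Number 3 was lower than number 2 by less (log2 difference -0.24). MMP1, the collagenase, was the most abundant at 3070.5 to 5030.7 FPKM, with a log2 fold change of 0.15 ± 0.17.

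Of 10 AP-1 and C/EBP genes 0 were called without the block, and with it JUNB fell (-0.47 ± 0.08) and CEBPD rose (0.72 ± 0.15). FOS, an immediate early gene, was highest in number 2 in both groups, at 47.1 FPKM in siCtrl 2 and 45.7 FPKM in siNUF2 2 against 7.56 to 26.1 FPKM elsewhere. Its order over the numbers was the opposite of that of IL6 and CXCL2. Of 13 genes that set cytokine mRNA stability 0 were called without the block and KHSRP rose with it (0.26 ± 0.07). HNRNPD, the most abundant, was at 0.02 ± 0.08 and ZFP36L1, a decay factor that binds AU-rich elements, at 0.41 ± 0.14 (edgeR adjusted p = 0.171).

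Among the receptors for these cytokines and gp130 signalling, 9 of 16 genes were tested. IL6ST (gp130), the signalling chain shared by IL6 and LIF, fell from 19.5 to 21.0 FPKM in siCtrl to 11.3 to 15.6 FPKM in siNUF2 (log2 fold change -0.58 ± 0.12, edgeR adjusted p = 0.0455). STAT3, the transcription factor downstream of gp130, rose from 7.33, 7.52 and 7.88 FPKM in siCtrl 1, 2 and 3 to 12.4, 9.74 and 11.8 FPKM in siNUF2 (0.60 ± 0.11, adjusted p = 0.0255). The IL6ST call was lost with the filterByExpr filter (adjusted p = 0.0718 in edgeR), with no filter (0.137), with limma (0.0514 and 0.0535), with the F-test (0.169) and without any 1 library other than siNUF2 3 (0.0940 to 0.161). The STAT3 call was lost with no filter (adjusted p = 0.0799 in edgeR), with the F-test (0.139) and without any 1 library other than siNUF2 2 (0.0739 to 0.102). With the block LIFR, the LIF receptor, fell (-0.67 ± 0.10) and PTPN11 rose (0.41 ± 0.09). IL6ST and LIFR each hold the seed word in the 3′ UTR, and STAT3 and PTPN11 do not. The chemokine receptors CXCR1, CXCR2, ACKR1 and CCR6 and the CSF2 receptor genes were under 1 FPKM.

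Of the other cytokines and chemokines, 10 of 21 in the table were tested and 0 were called without the block, while IL18 rose with it (0.44 ± 0.09). IL24 was the most abundant, at 26.2 to 70.1 FPKM, with a log2 fold change of -0.53 ± 0.26 (edgeR adjusted p = 0.344). IL32 had -0.68 ± 0.70. By number, 4 of these 10 genes differed, and CCL5 did so most, with 22.9 and 21.3 FPKM in siCtrl 3 and siNUF2 3 and 0.341 to 0.537 FPKM in the other 4 libraries. The high number 3 of IL6 was therefore shared by the chemokine CCL5 in both groups.

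Over the 9 lists outside the member set, 12 tested genes held the seed word and 71 with a canonical 3′ UTR did not. Of the 12, 1 was called lower without the block and 3 with it, and 0 were called higher in either fit. Of the 71, 2 were called lower and 1 higher without the block, and 7 lower and 7 higher with it. MAP3K7 and CAPN2 lack the word.

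**Figure D5:**
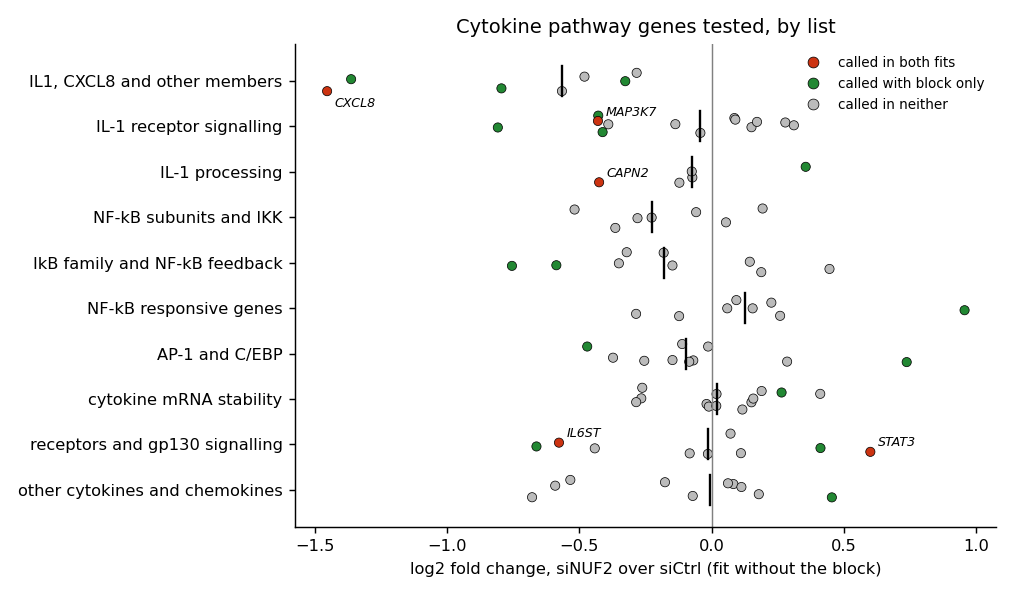
Log2 fold change of siNUF2 over siCtrl (edgeR without the block) for each tested gene of the member set and of the 9 pathway lists, with a black bar at the median of each list; vertical scatter within a list only separates the points. The genes called in both fits are CXCL8, MAP3K7, CAPN2, IL6ST and STAT3. The medians of the pathway lists lie between -0.23 and 0.12. That of the members is -0.57, but IL1B and CXCL8 chose this set by being lower here, so the medians cannot be compared as a test.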

How the data were processed

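RNA-seq of 8505C cells gave 3 siCtrl and 3 siNUF2 libraries, grouped by their labels. According to the study's methods, reads passed fastp, were aligned to GRCh38 with HISAT2 and were calculated with StringTie. Their versions, the counting tool and the strand setting are not given in the sources used here. The authors deposited FPKM and whole-number counts per gene for each library, and no column of per-sample values was left out.

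Counts were tested with edgeR 4.0.16 (quasi-likelihood, TMM, mean FPKM of at least 1, 11725 of 32985 genes, Benjamini-Hochberg adjusted p under 0.05 over all of them) in R 4.3.3, with limma 3.58.1 and DESeq2 1.42.0 as alternatives, and Python 3.11.15 for the rest. Other filters, size factors, an F-test on log2(FPKM + 1), the replicate block and leaving out each library were the other settings; the filterByExpr fits with the block or without single libraries, and the replicate-number fits without single libraries, were added after seeing the data. The code was tested on simulated data. No library was a copy of another (chi-square of replicate pairs over its degrees of freedom, 90.1 to 132). Libraries of the same number deviated together (r = 0.416, 0.412 and 0.514, against -0.292 to -0.131 for other numbers), so the numbers pair the libraries, and results that the block changes are given both ways. Nothing says that the libraries came from separate cultures, so p-values measure the spread between these libraries.

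The members, the gene lists and the seed word were chosen with earlier results of these data known. The genes named are the members, NUF2, and of each list those called, the most abundant and the one with the largest fold change; for IL1B and CXCL8 the 3 genes with the highest r; others named were chosen after their values were seen. Promoters came from RefSeq (GRCh38.p14, 9 of 10 members matched) and 3′ UTRs of at least 50 bases from GENCODE release 44 (10 of 10). OSM and TSHR were not analysed here.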

Additional observations from a re-analysis of the deposited data

How the results depend on the processing

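Of the results on single genes, 357 values kept direction and side of the threshold, 40 lost a call (in CXCL8, MAP3K7, CAPN2, IL6ST and STAT3), 15 gained one, and 11 turned sign, the last all in genes that were not called. IL6 turned to 0.70 without siCtrl 3 and 0.03 without siNUF2 2, CXCL2 to 0.036 and IL32 to 0.32 without siCtrl 3, and CCL20 to 0.84 without siCtrl 3 and 0.050 with filterByExpr and the block (log2). HNRNPD, at 0.02, turned to -0.0028 with a mean of 5 FPKM, -0.030 without siNUF2 2, -0.0034 with limma on log2(FPKM + 1) and with the F-test, and -0.0035 with limma on log2(FPKM + 0.1). Leaving out single libraries, the ranges were -0.89 to 0.70 for IL6, -0.94 to 0.036 for CXCL2, -1.61 to 0.32 for IL32, -0.79 to 0.84 for CCL20 and -0.030 to 0.044 for HNRNPD.

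The 468 genes called became 188 with no filter, 309 with filterByExpr, 1705 with the replicate block, 972 with DESeq2, 78 with the F-test, and 124 (without siNUF2 1) to 251 leaving out single libraries. Members called went from 1 to 4 with the block, 3 with filterByExpr and the block, 2 with DESeq2, and 0 with no filter or the F-test, where 2 had an unadjusted p under 0.05 in either; leaving out single libraries gave 0 to 1. The 891 genes called by replicate number became 0 with no filter in edgeR (3676 at an unadjusted p under 0.05), 34 without the group term, 2128 with DESeq2, and 606 (without siNUF2 3) to 1288 leaving out single libraries. The block changed the calls printed beside the genes above. Members under 1 FPKM rest on 0 to 230 counts. Causes of these changes were not tested.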
